A study of Mus musculus with 15 samples.

Results

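The nuclear genes for the subunits of oxidative phosphorylation were followed across 15 mouse tumors. They were taken by symbol from the 23329 genes of the count tables, as those beginning *Ndufa*, *Ndufb*, *Ndufc*, *Ndufs* or *Ndufv* with a number, *Sdha* to *Sdhd*, and those beginning *Uqcr*, *Cox4* to *Cox8* or *Atp5*. This gave 85 genes, 37 with symbols of complex I, 4 of complex II, 8 of complex III, 19 of complex IV and 17 of complex V. The symbols of 4 of them match although their products are not subunits: *Cox4nb* (a component of an endoplasmic reticulum complex), *Cox7a2l* (an assembly factor of respiratory supercomplexes), *Atp5s* and *Atp5sl* (now named *Dmac2*, an assembly factor of complex I), and they are pointed out where they occur. *Ndufa4*, now assigned to complex IV, and its paralog *Ndufa4l2* are counted by symbol in complex I in all sums, counts and medians by complex. The tumors came from mice that carry an oncogenic transgene, with or without *Casp2*, the gene for caspase-2. There were 4 *EμMyc* and 3 *EμMyc/Casp2-/-* B cell lymphomas from cervical lymph nodes of C57BL/6 mice, and 4 *Th-MYCN* (also written *Th-MycN* in the labels) and 4 *Th-MYCN/Casp2-/-* neuroblastomas from paraspinal thoracic tumors of Sv129/C57BL6 mice, 1 library per mouse, the neuroblastoma pieces being chosen for few visible vessels. The lymphoma mice overexpress c-Myc in B cells from the enhancer of the immunoglobulin heavy chain locus, and the neuroblastoma mice express MYCN in sympathetic neuroblasts from the promoter for tyrosine hydroxylase. Both *Casp2*-deficient groups carry the same transgenes as their controls. The age at onset was 13 to 19 weeks for *EμMyc*, 8 to 12 for *EμMyc/Casp2-/-*, 10 to 21 for *Th-MYCN* and 15 to 24 for *Th-MYCN/Casp2-/-*. Tumor type, transgene, tumor site and strain change together in this design and cannot be told apart, and neither can genotype and age at onset in the lymphomas, whose onset ranges do not overlap.

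Oxidative phosphorylation takes place in the inner mitochondrial membrane. Complex I (NADH dehydrogenase) and complex II (succinate dehydrogenase, which is also an enzyme of the tricarboxylic acid cycle) pass electrons to ubiquinone, complex III carries them on to cytochrome c and complex IV (cytochrome c oxidase) to oxygen, while complex V (ATP synthase) uses the resulting proton gradient. Most subunits are encoded in the nucleus, and Myc proteins are well known to act on mitochondrial biogenesis. Several subunits of complex IV exist as isoforms that are made in heart and skeletal muscle, brown fat, lung or testis in place of the common form. The genes of the mitochondrial genome, which encode the remaining subunits, are not analysed here.

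The libraries held 4940464 to 17638029 reads assigned to genes on the strand that was used. A level is given in CPM, the read count of a gene relative to the size of its library, after TMM correction of that size for composition. At 3 reads the smallest level that could be seen was 0.170 to 0.607 CPM, and this covers counting error only. The markers of the tumors matched their labels. The summed level of 7 B cell markers was 2173 to 3993 CPM in the lymphomas and 8.82 to 23.0 CPM in the neuroblastomas, and that of 9 sympathetic neuroblast markers was 2.68 to 23.6 CPM and 3373 to 5860 CPM. *Casp2* itself was at 125 to 203 CPM in *EμMyc* and 51.9 to 76.1 CPM in *EμMyc/Casp2-/-* lymphomas (log2 fold change -1.35, edgeR quasi-likelihood FDR 0.0536). In the neuroblastomas it was at 76.0 to 125 CPM in *Th-MYCN* and 39.6 to 80.1 CPM in *Th-MYCN/Casp2-/-* tumors (log2 fold change -0.79, quasi-likelihood FDR 0.327), where tumor MYCNC2ko118 at 80.1 CPM lay above *Th-MYCN* tumor MYCN332. A count over the whole gene can include exons outside a deletion, so this is a partial check of the genotype. In bulk tumors, fewer cells of a type and less RNA per cell cannot be told apart.

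The 85 genes together took 1.19% (MYCN391) to 1.92% (EuMycC2ko215) of the reads, with a median of 1.33%. The low-count filter (over 1 CPM in at least 3 tumors) was passed by 81 of them, of which 77 encode subunits, and 71 exceeded 10 CPM on average. *Ndufs5* (complex I) and *Cox8c* (the testis isoform of subunit 8) had no read in any tumor, and *Cox4i2* and *Cox7b2* had too few. Per kilobase of transcript, the highest mean levels over all tumors were those of *Atp5b* and *Atp5a1*, the catalytic beta and alpha subunits of the ATP synthase, at 965 and 621 CPM per kb, *Cox4i1*, the common form of subunit 4 of complex IV, at 671 CPM per kb, and *Atp5g3*, one of the genes for subunit c of the rotor, at 647 CPM per kb. The median SD within groups, on the log2 scale, was 0.304 for the 71 genes over 10 CPM and 0.354 for the 10498 genes of all kinds over that level. By the ratio of the highest to the lowest tumor, the narrowest range was that of *Ndufc2*, an accessory subunit of complex I, with 1.38, followed by *Atp5c1*, the central stalk gamma subunit, with 1.44. The widest range over 10 CPM was that of *Uqcrb*, a ubiquinone-binding subunit of complex III, with a ratio of 6.12.

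The count at some of these genes can depend on how reads were assigned, and the size of this part was not tested. Reads of 50 bases that fit more than 1 place were not counted, and of the 50-base windows of the transcripts 87.4% for *Atp5g2*, 84.8% for *Atp5l*, 53.0% for *Cox7c* and 31.1% for *Ndufs5* also occur in another annotated gene. Shares above that of *Ndufs5* did not always go with few reads. *Cox5a* with 32.0% and *Atp5h* with 47.9% had mean levels over all tumors of 223 and 63.1 CPM. The libraries did not keep strand, since the second strand held 48.8% to 49.3% of the reads of both strands together. At single genes its share strayed from this, with 3.78% for *Atp5l*, 8.02% for *Atp5g1*, 15.9% for *Cox7c* and 19.4% for *Atp5g2*, and at the other end 91.3% for *Ndufb4*, 75.4% for *Cox5b* and 68.3% for *Uqcr11*. In all, 10 tested members were outside 40% to 60%. The low values of *Atp5g1*, *Atp5g2*, *Atp5l* and *Cox7c*, at 2.36 to 4.11, 0.637 to 1.75, 0.684 to 1.75 and 1.70 to 2.82 CPM in the *EμMyc* tumors, are therefore uncertain as levels. With reads of either strand, *Cox7c*, a small subunit of complex IV, had a log2 fold change of -0.76 (quasi-likelihood FDR 0.0347) between *EμMyc* lymphomas and *Th-MYCN* neuroblastomas, where the second strand gave 0.67 (FDR 0.144).

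One lymphoma stood apart. Tumor EuMycC2ko215, an *EμMyc/Casp2-/-* lymphoma with the smallest library, had the highest level of all 15 tumors for 37 of the 71 genes over 10 CPM. Its median deviation from the mean over tumors was 0.52 on the log2 scale for these 71 genes and -0.14 for the 10411 genes of all kinds with an annotated length. By the summed length of a gene's exons, the deviation in this tumor was 0.60 for the 16 members under 1 kb and 0.42 for the 29 over 2 kb, and for all genes it was 0.68 under 1 kb (167 genes) and -0.22 over 2 kb (9325 genes). The other lymphomas deviated by -0.14 to 0.18 over the 71 genes and the neuroblastomas by -0.25 to 0.27, the highest of them being MYCNC2ko176. EuMycC2ko215 also had the highest summed level of 8 T cell markers, 1477 CPM against 29.5 to 214 CPM in the other lymphomas, and of 8 macrophage markers, 1708 CPM against 339 to 1243 CPM, and the lowest *Myc*, 497 CPM against 1237 to 1912 CPM. The part of T cells, macrophages, gene length and depth in its values was not tested. Results over all members and for many single genes are given with and without it, while the sums and counts by complex include it.

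**Figure D1:**
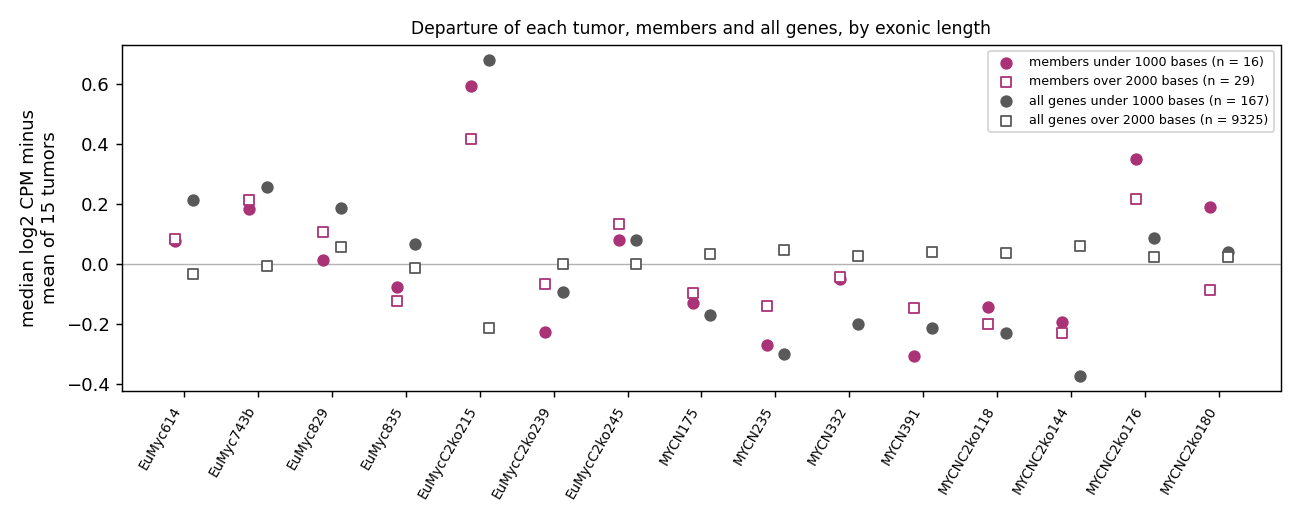
Median deviation of each of the 15 tumors from the mean over tumors (log2 scale) for members over 10 CPM and for all genes over 10 CPM, split by exonic length (under 1 kb, over 2 kb). EuMycC2ko215 has the highest point in each set but that of all genes over 2 kb, where it is the lowest at -0.22.

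Summed over the members of a complex, the levels of complex II were the only ones whose lymphoma and neuroblastoma groups were apart in both genotypes. Its 4 genes added up to 1113, 1201, 985 and 811 CPM in *EμMyc*, 1056, 977 and 922 CPM in *EμMyc/Casp2-/-*, 761, 726, 764 and 719 CPM in *Th-MYCN* and 674, 727, 826 and 729.9 CPM in *Th-MYCN/Casp2-/-* tumors. The lowest *EμMyc* tumor, EuMyc835, was above every *Th-MYCN* tumor, and the lowest *EμMyc/Casp2-/-* tumor, EuMycC2ko245, was above every *Th-MYCN/Casp2-/-* tumor. Of the 4 genes summed, *Sdhd* alone was apart in both genotypes. Among all genes tested singly, 45.5% were apart in both genotypes in the same direction, so that such a gap was common. The sums of complexes III and V were apart with *Casp2* only. The 17 complex V symbols summed to 6547 ± 808 CPM in *EμMyc* (SD, n = 4), 6185 ± 853 CPM in *EμMyc/Casp2-/-* (n = 3), 4908 ± 265 CPM in *Th-MYCN* (n = 4) and 5201 ± 528 CPM in *Th-MYCN/Casp2-/-* (n = 4). The sums of complex I were 3846 ± 269 CPM, 4299 ± 1126 CPM, 3648 ± 274 CPM and 4042 ± 595 CPM in the same order, with EuMycC2ko215 at 5554 CPM and the 2 other tumors of its group at 3378 and 3966 CPM. In complex III the sums were 1341 ± 145 CPM, 1484 ± 451 CPM, 1036 ± 34.5 CPM and 1159.8 ± 148 CPM, and in complex IV 2359 ± 244 CPM, 2622 ± 717 CPM, 2002 ± 154 CPM and 2351 ± 417 CPM. The SD in *EμMyc/Casp2-/-* was the largest of the 4 groups for complexes I, III, IV and V and for all 85 genes, and EuMycC2ko215 was the highest tumor of that group in each of them.

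**Figure D2:**
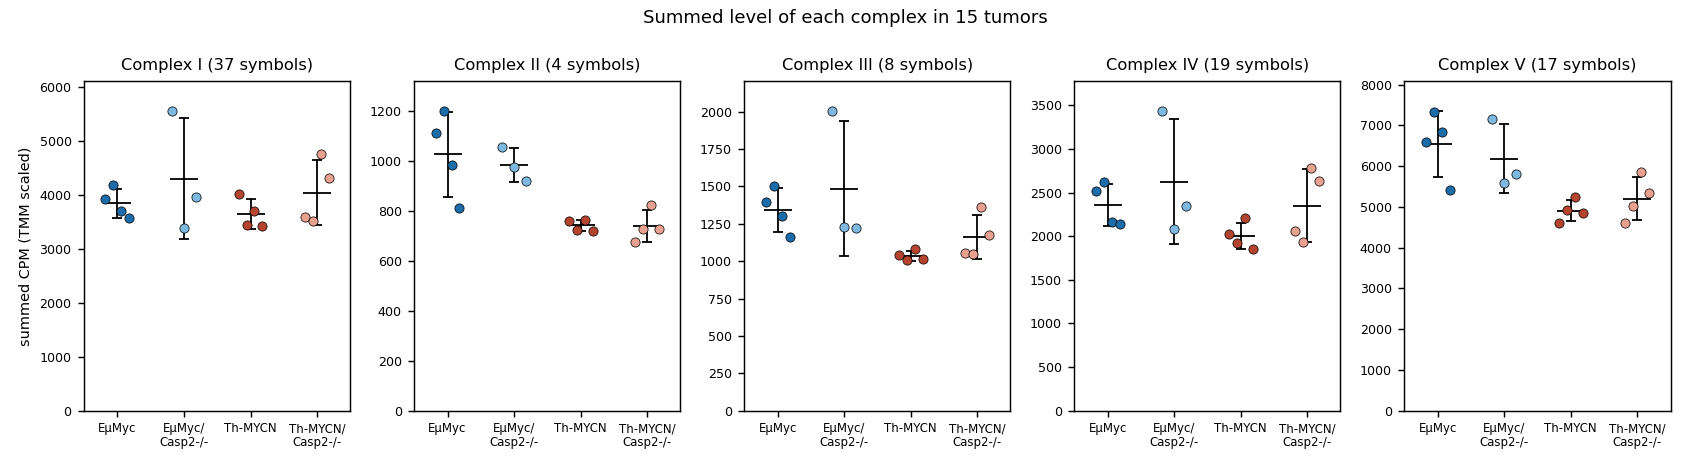
Summed level (CPM after TMM scaling) of the members of each complex in each tumor, by group, with the group mean and SD (n = 4, 3, 4 and 4). In complex II the lymphomas (811 to 1201 CPM) and the neuroblastomas (674 to 826 CPM) nearly separate, while in complex I the groups overlap and EuMycC2ko215 (5554 CPM) lies above all others.

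Sequence features at the starts of these genes, which the choice by symbol did not use, were counted. In the 250 bases before the start, taken from RefSeq on GRCm38.p6 for the 69 of 85 genes that could be matched, 4 short motifs were searched on both strands. The core of the site of NRF1, a regulator of respiratory genes, spelled GCGCNTGCG, occurred in 16 of 69 windows (23.2%) and in 5.40% of the windows of all 27025 genes. The site of the ETS family to which GABP belongs, CCGGAAG, was in 11 (15.9%, all genes 7.05%), the site of YY1, AANATGGC, in 4 (5.80%, all genes 3.93%) and the E-box of Myc proteins, CACGTG, in 7 (10.1%, all genes 6.05%). At least 1 of the 4 was in 31 windows (44.9%) against 19.8% of all genes, while the median GC content was 56.0% and 52.0%. The 27025 genes were not limited to protein-coding ones, so these shares do not compare like with like in full. NRF1 sites can overlap their own reverse complement and were counted once per window. A head-to-head partner, another protein-coding gene on the opposite strand with its start within 1 kb, was annotated for 25 of the 85 genes (29.4%) and for 8.64% of 22028 protein-coding genes. These matches describe the letters of the windows and carry no evidence of binding.

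To compare the tumor types, all tumors entered 1 model with 4 group means, and the *EμMyc* lymphomas were set against the *Th-MYCN* neuroblastomas, and the *EμMyc/Casp2-/-* lymphomas against the *Th-MYCN/Casp2-/-* neuroblastomas. No tumor is shared by these 2 comparisons. With *Casp2*, 18 of the 81 tested members were higher and 2 lower in lymphoma at an FDR under 0.05 of edgeR's quasi-likelihood test with Benjamini-Hochberg adjustment, against 27.4% of all 14880 genes higher and 32.9% lower. In either direction this was 24.7% of the members and 60.3% of all genes, and the median absolute log2 fold change was 0.32 and 1.02. With over 2-fold change as well, 3 were higher (18.3% of all genes) and 0 lower (27.8% of all genes), *Atp5sl*, *Sdhd* and *Cox6c*. *Atp5sl* is not a subunit. Of the 77 tested subunits, 16 were higher and 2 lower, and 2 were higher by over 2-fold. At an unadjusted p under 0.05 there were 24 members in either direction. The median log2 fold change was 0.23 for the members and -0.036 for all genes, and 63 members had a positive one. The *EμMyc* and *Th-MYCN* groups did not overlap for 28 members, with lymphoma above for 25 (26.4% of all genes) and below for 3 (32.9% of all genes). Under RLE scaling the split was 14 higher and 4 lower, and without EuMyc743b it was 14 and 5.

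Without *Casp2*, 12 members were higher and 1 lower in lymphoma by the same test, against 26.8% of all genes higher and 31.4% lower. Only *Atp5sl*, which is not a subunit, was over 2-fold, so that 1 member was higher at that size (19.7% of all genes) and 0 lower (26.6% of all genes). Of the 77 tested subunits, 10 were higher and 1 lower, and 0 of these were over 2-fold. The groups were apart for 6 members above (23.6% of all genes) and 0 below (31.2% of all genes). The median log2 fold change was 0.25, against -0.049 for all genes, with 60 members positive. These counts rest on single tumors. Without EuMycC2ko215 there were 6 members higher and 5 lower, the median was 0.035 and 43 members were positive. The 6 were *Atp5sl*, *Sdhd*, *Ndufa9*, *Ndufa12*, *Cox7b* and *Uqcrc2*, and the 5 were *Ndufs4*, *Ndufv3*, *Ndufb2*, *Ndufa8* and *Cox6b2*. Without EuMycC2ko239 the counts were 23 and 0, without EuMycC2ko245 11 and 2, without MYCNC2ko144 5 and 1, without MYCNC2ko118 8 and 1, and without MYCNC2ko176 or MYCNC2ko180 14 and 0 or 12 and 0.

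In both comparisons 12 members passed the test, with the same sign, which is 12 of the 20 called with *Casp2* and 12 of the 13 called without it. That is 14.8% of the 81 tested members, against 50.4% of all genes called in both comparisons. *Atp5sl*, *Sdhd*, *Cox6c*, *Ndufa12*, *Cox7a2l*, *Cox7b*, *Uqcrc2*, *Sdhb*, *Ndufs7*, *Atp5g3* and *Ndufa9* were higher in lymphoma and *Ndufv3* was lower. *Atp5sl* and *Cox7a2l* are not subunits. Without EuMycC2ko215, 7 of the 12 were still called in the *Casp2*-deficient tumors, and *Cox6c*, *Cox7a2l*, *Sdhb*, *Ndufs7* and *Atp5g3* were not. Of 14 alternatives, followed for 11 of the 12 (*Ndufa9* is left out), *Atp5sl* and *Sdhd* kept that call in 14, *Cox7a2l* in 13, *Uqcrc2* in 12, *Cox6c* in 11, *Atp5g3* and *Ndufv3* in 10, *Ndufs7* in 9, *Sdhb* and *Ndufa12* in 7 and *Cox7b* in 6. Of the 12 called members, 4 had groups apart in both comparisons, *Atp5sl*, *Sdhd*, *Ndufa12* and *Cox7b*. *Atp5a1*, which was called with *Casp2* only, was apart in both as well. Of all 14880 tested genes, 45.5% were apart in both in the same direction, a share taken over genes called or not. By complex, to be set against the shares of all genes above, the members called with *Casp2* were 6 higher and 2 lower of 36 in complex I, 2 of 4 higher in complex II, 2 of 8 in complex III, 3 of 16 in complex IV and 5 of 17 in complex V, and the median log2 fold changes were 0.10, 0.43, 0.23, 0.19 and 0.46. Without *Casp2* they were 3 higher and 1 lower, then 2, 1, 4 and 2 higher, with medians of 0.15, 0.36, 0.40, 0.10 and 0.33. In both comparisons *Cox7a2l* is counted in complex IV and *Atp5sl* in complex V. The values without *Casp2* include EuMycC2ko215, and leaving it out moved the median over all 81 tested members from 0.25 to 0.035.

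**Figure D3:**
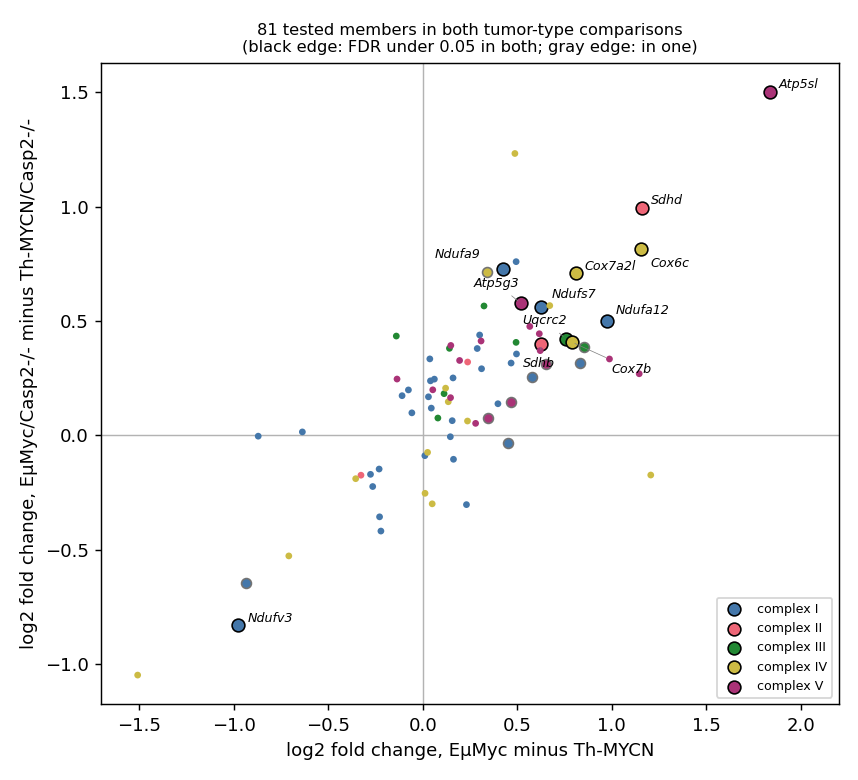
Log2 fold change of lymphoma over neuroblastoma for the 81 tested members, *EμMyc* minus *Th-MYCN* on the x axis and *EμMyc/Casp2-/-* minus *Th-MYCN/Casp2-/-* on the y axis, colored by complex, with black edges for the 12 genes called in both comparisons and gray edges for those called in 1. *Atp5sl* (1.84 and 1.50) and *Sdhd* (1.16 and 0.99) lie at the upper right of the genes called in both, and *Ndufv3* (-0.98 and -0.83) is the only gene called in both that lies below 0.

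In succinate dehydrogenase, complex II, 2 of the 4 genes were higher in lymphoma in both comparisons and 2 were called in neither. *Sdhd* encodes one of the membrane anchors that bind ubiquinone (chr9:50596357-50603812 on mm10/GRCm38). It stood at 322, 371, 282 and 285 CPM in *EμMyc*, 278, 244 and 296 CPM in *EμMyc/Casp2-/-*, 131, 128, 158 and 147 CPM in *Th-MYCN* and 124, 121, 188 and 114 CPM in *Th-MYCN/Casp2-/-* tumors. All 7 lymphomas were above all 8 neuroblastomas, the nearest being EuMycC2ko239 and MYCNC2ko176. The log2 fold change was 1.16 (SE 0.17, FDR 3.13e-05) with *Casp2* and 0.99 (SE 0.18, FDR 0.000254) without it by edgeR's quasi-likelihood test. This call held under every other setting that was tried and without each tumor in turn. *Sdhb*, the iron-sulfur subunit (chr4:140961203-140979193), was at 257, 229, 269 and 239 CPM in *EμMyc*, 259, 179 and 231 CPM in *EμMyc/Casp2-/-*, 166, 153, 164 and 159 CPM in *Th-MYCN* and 149.8, 148, 204 and 173 CPM in *Th-MYCN/Casp2-/-* tumors. The *EμMyc* and *Th-MYCN* groups were apart, while in the *Casp2*-deficient tumors MYCNC2ko176 exceeded EuMycC2ko239. Its log2 fold change was 0.63 (SE 0.15, FDR 0.00168) and 0.40 (SE 0.16, FDR 0.0387) (quasi-likelihood), and without EuMycC2ko215 the second was 0.34 (FDR 0.0968).

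The other pair of complex II genes did not pass the test in either comparison. *Sdha*, the flavoprotein that oxidizes succinate, was at 413, 454, 343 and 186 CPM in *EμMyc*, 375, 441 and 269.9 CPM in *EμMyc/Casp2-/-*, 270.4, 315, 315 and 284 CPM in *Th-MYCN* and 279.9, 318, 269.8 and 292 CPM in *Th-MYCN/Casp2-/-* tumors, and EuMyc835 was the lowest of all tumors for it. Its log2 fold change was 0.24 (SE 0.22, FDR 0.376) with and 0.32 (SE 0.24, FDR 0.268) without *Casp2*, and it was called with *Casp2* when EuMyc835 was left out, at 0.45 (quasi-likelihood FDR 0.0362). *Sdhc*, the second membrane anchor, was at 121, 147, 91.7 and 101 CPM in *EμMyc*, 143, 113 and 125 CPM in *EμMyc/Casp2-/-*, 193, 129.7, 127 and 129 CPM in *Th-MYCN* and 121, 139, 164 and 151 CPM in *Th-MYCN/Casp2-/-* tumors, so that the anchors had log2 fold changes of opposite sign. They were -0.33 (SE 0.19, FDR 0.14) for *Sdhc* with *Casp2* and -0.17 (SE 0.20, FDR 0.478) without it (quasi-likelihood), and MYCN175 was the highest tumor. Without EuMyc743b, *Sdhc* was called lower with *Casp2*, at -0.46 (quasi-likelihood FDR 0.0479). The start of *Sdhd* lies 98 bases from that of *Timm8b*, which encodes an import chaperone, on the other strand, and those of *Sdha* and *Ccdc127*, the gene opposite it, lie 29 bases apart. *Sdhb* has no such partner. The 250 bases before *Sdhd* hold an NRF1 site and an ETS site, 78 and 46 bases before the start, and those before *Sdhb* hold none of the 4 motifs. The NRF1 site of *Sdhd* is not among the bases shown. The bases outside annotated exons are shown for both genes that were called, from RefSeq on GRCm38.p6, 5′ to 3′ along the strand of the gene, because both were higher in lymphoma and only the first holds one of the 4 motifs in the bases shown, an ETS site on its reverse strand in capitals (chr9:50603850-50603909, minus strand, and chr4:140961021-140961202, plus strand).
Sdhd: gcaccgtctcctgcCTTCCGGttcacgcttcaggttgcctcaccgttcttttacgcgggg
Sdhb: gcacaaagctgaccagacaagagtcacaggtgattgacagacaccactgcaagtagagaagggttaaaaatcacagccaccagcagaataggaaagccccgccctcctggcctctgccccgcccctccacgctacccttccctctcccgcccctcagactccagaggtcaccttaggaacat

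Complex I, the largest, was the only complex with members called lower in lymphoma when all tumors were used. *Ndufv3*, an accessory subunit of the flavoprotein module that takes electrons from NADH (chr17:31520115-31531331), was at 77.3, 45.6, 62.3 and 76.2 CPM in *EμMyc*, 78.5, 50.3 and 76.0 CPM in *EμMyc/Casp2-/-*, 98.2, 137, 151 and 127 CPM in *Th-MYCN* and 98.5, 71.4, 158 and 158 CPM in *Th-MYCN/Casp2-/-* tumors. Every *EμMyc* tumor was below every *Th-MYCN* tumor, and in the *Casp2*-deficient tumors only MYCNC2ko144 fell within the range of the lymphomas. The log2 fold change was -0.98 (SE 0.26, FDR 0.0045) and -0.83 (SE 0.28, FDR 0.0208) by the quasi-likelihood test, and -0.89 (FDR 0.0342) in the second without EuMycC2ko215. The second call was kept in 10 of 14 alternatives and lost without EuMycC2ko239 (FDR 0.129), MYCNC2ko176 (FDR 0.0619) or MYCNC2ko180 (FDR 0.0843) and with only the groups compared (FDR 0.0700, all by the quasi-likelihood test). *Ndufs4*, an accessory subunit whose loss causes a mitochondrial encephalopathy in mice, was at 60.6, 73.7, 52.2 and 37.5 CPM in *EμMyc*, 111, 67.1 and 45.2 CPM in *EμMyc/Casp2-/-*, 119.6, 100.3, 104 and 105 CPM in *Th-MYCN* and 92.0, 93.6, 176 and 104 CPM in *Th-MYCN/Casp2-/-* tumors. It was lower with *Casp2*, by a log2 fold change of -0.94 (SE 0.28, FDR 0.00913), and had -0.64 (SE 0.30, FDR 0.0817) without (quasi-likelihood), or -0.997 without EuMycC2ko215 (FDR 0.0144). *Ndufv3* faces *Wdr4*, a component of a tRNA methyltransferase, at a distance of 135 bases. The 134 bases before its start, shown as those of the member that was lower in both comparisons, hold none of the 4 motifs (chr17:31519981-31520114, plus strand, RefSeq, GRCm38.p6).
Ndufv3: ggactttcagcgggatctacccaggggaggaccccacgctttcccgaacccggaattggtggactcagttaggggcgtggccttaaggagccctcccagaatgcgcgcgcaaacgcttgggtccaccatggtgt

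Among the complex I members that were higher in lymphoma, *Ndufa12*, an accessory subunit next to the NADH-oxidizing module, had the largest log2 fold change with *Casp2*. Its levels were 53.2, 50.3, 62.8 and 59.7 CPM in the *EμMyc* and 51.9, 37.4 and 59.1 CPM in the *EμMyc/Casp2-/-* lymphomas, against 27.5, 26.3, 26.9 and 34.3 CPM in the *Th-MYCN* and 35.9, 34.5, 32.3 and 37.2 CPM in the *Th-MYCN/Casp2-/-* neuroblastomas. The tumor types were apart in both genotypes, EuMycC2ko239 coming closest to the neuroblastomas. The log2 fold change was 0.97 (SE 0.17, FDR 0.000196) and 0.50 (SE 0.19, FDR 0.0317) (quasi-likelihood). Its second-strand share was 34.1%, another gene shares 26.2% of its 50-base windows, and with reads of either strand the second value was 0.20 (FDR 0.365). *Ndufs7*, which carries the last iron-sulfur cluster before ubiquinone, was at 134, 128, 150.1 and 114 CPM in the *EμMyc* and 208, 103 and 135 CPM in the *EμMyc/Casp2-/-* lymphomas, against 73.1, 91.4, 90.1 and 86.3 CPM in the *Th-MYCN* and 80.7, 98.0, 102 and 121 CPM in the *Th-MYCN/Casp2-/-* neuroblastomas. Only the *EμMyc* and *Th-MYCN* groups were apart. The values were 0.63 (SE 0.20, FDR 0.0124) and 0.56 (SE 0.21, FDR 0.0321) (quasi-likelihood), the latter 0.31 (FDR 0.154) without EuMycC2ko215.

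A further core subunit with iron-sulfur clusters, *Ndufs8*, was higher with *Casp2* by a log2 fold change of 0.83 (SE 0.22, FDR 0.00398) and had 0.32 (SE 0.24, FDR 0.262) without it (quasi-likelihood). *Ndufa9*, an accessory subunit at the junction of the arms, which is named here after its values were seen, had the larger value without *Casp2*, 0.73 (SE 0.19, FDR 0.00364), than with it, 0.43 (SE 0.17, FDR 0.0459) (quasi-likelihood). *Ndufa6* and *Ndufb6*, also accessory subunits, were called with *Casp2*, at 0.58 and 0.45, and had 0.25 and -0.035 without. The core subunits *Ndufs1*, which carries iron-sulfur clusters, and *Ndufv1*, which binds NADH and FMN, did not pass the test, with log2 fold changes of 0.062 and -0.23 with *Casp2* and 0.25 and -0.15 without. *Ndufv1* was at 186, 194, 109 and 154 CPM in *EμMyc*, 286, 191 and 102 CPM in *EμMyc/Casp2-/-*, 203, 182, 197 and 173 CPM in *Th-MYCN* and 208, 205, 213 and 228 CPM in *Th-MYCN/Casp2-/-* tumors. Its lymphomas spread over a wider range than its neuroblastomas, with EuMyc829 and EuMycC2ko245 lowest. *Ndufv1* lies on chromosome 19, as do *Ndufs8*, *Cox8a* and *Ndufb8*. In these too EuMycC2ko245 and EuMyc829 were the lowest lymphomas. They stood at 80.2 and 90.6 CPM for *Ndufs8*, 106 and 112 CPM for *Cox8a* and 83.8 and 85.3 CPM for *Ndufb8*. The part of the shared chromosome in this was not tested.

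In complex III the core protein *Uqcrc2* was higher in lymphoma in both comparisons, and its partner *Uqcrc1* was not called in either when all tumors were used. The levels of *Uqcrc2* were 321, 358, 329.8 and 312 CPM in the *EμMyc* and 234, 333 and 287 CPM in the *EμMyc/Casp2-/-* lymphomas, against 176, 199.6, 198 and 207 CPM in the *Th-MYCN* and 215, 243, 204 and 189.5 CPM in the *Th-MYCN/Casp2-/-* neuroblastomas, and EuMycC2ko215, the highest tumor for so many members, was the lowest lymphoma for this one and below MYCNC2ko144. The log2 fold change was 0.76 (SE 0.14, FDR 0.000198) with *Casp2* and 0.42 (SE 0.15, FDR 0.0211) without (quasi-likelihood), and 0.60 in the latter without EuMycC2ko215. The second call was lost without EuMycC2ko239, at 0.35 (quasi-likelihood FDR 0.0637), and with only the groups compared, at 0.48 (quasi-likelihood FDR 0.0636). *Uqcrc1* had log2 fold changes of 0.14 and 0.38, and the second was called without MYCNC2ko176, at 0.49 (quasi-likelihood FDR 0.0368). Another gene holds 24.8% of the 50-base windows of *Uqcrc2*. *Uqcr11*, a small accessory subunit, was higher with *Casp2* by 0.85 (SE 0.20, FDR 0.00211) and had 0.39 (SE 0.22, FDR 0.143) without (quasi-likelihood), where its second-strand share of 68.3% applies. *Uqcrfs1*, the Rieske iron-sulfur protein that hands electrons to cytochrome c1, was at 226, 230.1, 175 and 97.8 CPM in *EμMyc*, 254, 187 and 118 CPM in *EμMyc/Casp2-/-*, 159, 181, 174 and 175 CPM in *Th-MYCN* and 170.4, 187, 195 and 154 CPM in *Th-MYCN/Casp2-/-* tumors. The *EμMyc* range enclosed all *Th-MYCN* tumors, with EuMyc835 lowest, and the log2 fold changes were 0.08 and 0.076, neither of them called. *Uqcrfs1* lies on chromosome 13, as do *Sdha*, *Ndufs4*, *Ndufs6*, *Uqcrb* and *Cox7c*. EuMyc835 was the lowest of all tumors for *Sdha* (186 CPM), *Ndufs4* (37.5 CPM), *Ndufs6* (34.4 CPM) and *Uqcrb* (10.7 CPM) as well. For *Cox7c* the lowest was MYCNC2ko176, at 1.16 CPM. The part of the shared chromosome in this was not tested.

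**Figure D4:**
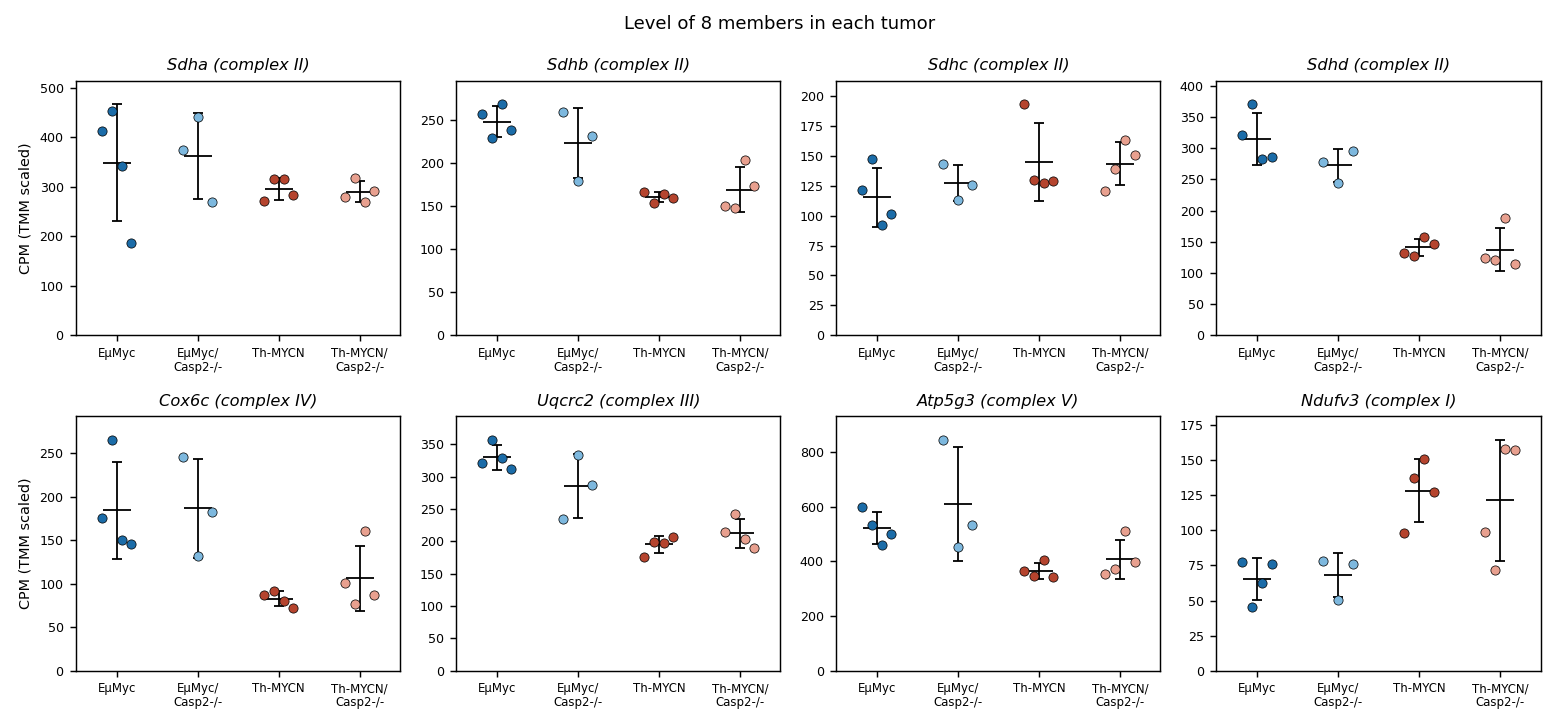
Level (CPM after TMM scaling) of 8 members in each tumor, by group, with the group mean and SD (n = 4, 3, 4 and 4), for the 4 genes of complex II and for *Cox6c*, *Uqcrc2*, *Atp5g3* and *Ndufv3*. *Sdhd* separates all lymphomas (244 to 371 CPM) from all neuroblastomas (114 to 188 CPM), *Ndufv3* is lower in lymphomas, and *Sdha* and *Sdhc* overlap.

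In complex IV the members called in both comparisons were the small structural subunits *Cox6c* and *Cox7b* and the assembly factor *Cox7a2l*. *Cox6c* was at 176, 266, 150.4 and 146 CPM in *EμMyc*, 245, 132 and 182 CPM in *EμMyc/Casp2-/-*, 87.2, 92.2, 79.8 and 71.8 CPM in *Th-MYCN* and 100.4, 76.7, 160.3 and 87.1 CPM in *Th-MYCN/Casp2-/-* tumors. MYCNC2ko176 lay among the lymphomas and EuMycC2ko239 was the lowest of them. The log2 fold change was 1.16 (SE 0.26, FDR 0.00123) and 0.81 (SE 0.28, FDR 0.0188) (quasi-likelihood), the latter 0.62 (FDR 0.0901) without EuMycC2ko215 and 0.58 (FDR 0.0704) with reads of either strand. *Cox7b* was at 195, 227, 229 and 177 CPM in *EμMyc*, 187, 161 and 200.0 CPM in *EμMyc/Casp2-/-*, 107, 109, 153 and 110.1 CPM in *Th-MYCN* and 123, 127, 145 and 155 CPM in *Th-MYCN/Casp2-/-* tumors. The groups were apart in both genotypes, narrowly without *Casp2*, and the log2 fold change was 0.79 (SE 0.16, FDR 0.000485) and 0.41 (SE 0.17, FDR 0.0479) (quasi-likelihood). The second call was kept in 6 of 14 alternatives, with an FDR of up to 0.153 (without EuMycC2ko245, quasi-likelihood), and was also lost without MYCNC2ko118, MYCNC2ko144 or MYCNC2ko176. With all tumors of these groups it was lost by the likelihood ratio test of edgeR (FDR 0.0542). By the quasi-likelihood test it was lost under RLE scaling (FDR 0.0621), no low-count filter (FDR 0.0801) and only the groups compared (FDR 0.0616). *Cox7a2l* was at 133, 121, 164 and 98.8 CPM in the *EμMyc* and 205, 129 and 92.5 CPM in the *EμMyc/Casp2-/-* lymphomas, against 63.5, 75.5, 81.5 and 74.6 CPM in the *Th-MYCN* and 97.7, 74.2, 95.2 and 80.5 CPM in the *Th-MYCN/Casp2-/-* neuroblastomas, with 0.81 (SE 0.22, FDR 0.00497) and 0.71 (SE 0.24, FDR 0.0171) (quasi-likelihood), the second 0.41 (FDR 0.105) without EuMycC2ko215. *Cox5a*, a subunit of the matrix side, was called only without *Casp2*, at 0.72 (SE 0.24, FDR 0.0174) against 0.34 (SE 0.22, FDR 0.198) with it (quasi-likelihood), and EuMycC2ko215 was at 452 CPM against 209 and 289 CPM in the 2 other tumors of its group. The call was lost without EuMycC2ko215, at 0.42 (quasi-likelihood FDR 0.122).

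The complex V members called in both comparisons were *Atp5g3* and *Atp5sl*. *Atp5sl*, which is no subunit of the ATP synthase, had the largest fold change among the members called, and was at 105, 62.0, 91.9 and 97.1 CPM in the *EμMyc* and 73.4, 70.5 and 93.3 CPM in the *EμMyc/Casp2-/-* lymphomas, against 20.6, 28.2, 26.8 and 24.1 CPM in the *Th-MYCN* and 29.8, 25.6, 18.8 and 37.5 CPM in the *Th-MYCN/Casp2-/-* neuroblastomas. The tumor types were far apart in both genotypes, and the log2 fold change was 1.84 (SE 0.22, FDR 5.22e-06) and 1.50 (SE 0.24, FDR 7.12e-05) (quasi-likelihood), called under every other setting and without each tumor. *Atp5g3* (chr2:73908447-73911326) was at 598, 535, 458 and 501 CPM in *EμMyc*, 846, 452 and 533 CPM in *EμMyc/Casp2-/-*, 367, 345, 407 and 342 CPM in *Th-MYCN* and 354, 372, 512 and 396 CPM in *Th-MYCN/Casp2-/-* tumors. The *Casp2*-deficient groups overlapped, since MYCNC2ko176 exceeded EuMycC2ko239. Its log2 fold change was 0.52 (SE 0.19, FDR 0.026) and 0.58 (SE 0.20, FDR 0.022) (quasi-likelihood), the latter 0.32 (FDR 0.137) without EuMycC2ko215. The call with *Casp2* was lost in 4 of 15 alternatives, under RLE scaling (FDR 0.0510) and without EuMyc614 (FDR 0.0556), MYCN235 (FDR 0.0626) or MYCN391 (FDR 0.0631, quasi-likelihood). The 3 genes *Atp5g1*, *Atp5g2* and *Atp5g3* encode the same mature subunit c, and the first 2 of them were at 5.04 CPM or less in every tumor, so nearly all assigned reads came from *Atp5g3*. With reads of either strand, *Atp5g1* had -0.057 with and -0.23 without *Casp2*, where the second strand gave 0.62 and 0.37, none of them called. The 250 bases before *Atp5g3*, as those of the c subunit gene with nearly all assigned reads, are shown with an E-box in capitals (chr2:73911327-73911576, minus strand, RefSeq, GRCm38.p6).
Atp5g3: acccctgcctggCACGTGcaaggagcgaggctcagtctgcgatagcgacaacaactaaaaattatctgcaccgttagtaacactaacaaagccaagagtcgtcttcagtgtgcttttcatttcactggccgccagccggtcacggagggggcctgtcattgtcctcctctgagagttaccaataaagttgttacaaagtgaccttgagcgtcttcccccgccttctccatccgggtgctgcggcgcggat

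The alpha and beta subunits of the ATP synthase passed the test with *Casp2* and not without it. *Atp5a1* was at 1788, 2636, 1990.3 and 1385 CPM in *EμMyc*, 1737, 1566 and 1641 CPM in *EμMyc/Casp2-/-*, 1083, 1306, 1332 and 1242 CPM in *Th-MYCN* and 1215, 1510.3, 1239.9 and 1349 CPM in *Th-MYCN/Casp2-/-* tumors. All *EμMyc* tumors were above all *Th-MYCN* tumors, and the *Casp2*-deficient groups were apart as well, with EuMycC2ko239 and MYCNC2ko144 closest. The log2 fold change was 0.65 (SE 0.17, FDR 0.00405) with and 0.31 (SE 0.18, FDR 0.161) without *Casp2* (quasi-likelihood). *Atp5b* was at 2322, 2199, 2358 and 1736 CPM in *EμMyc*, 1906, 1893 and 1657 CPM in *EμMyc/Casp2-/-*, 1517, 1759.7, 1817 and 1675 CPM in *Th-MYCN* and 1670.2, 1705, 1798 and 1726 CPM in *Th-MYCN/Casp2-/-* tumors, with 0.35 (SE 0.13, FDR 0.0304) and 0.076 (SE 0.14, FDR 0.663) (quasi-likelihood), and of its 15 other settings with *Casp2* only 7 kept the call. *Atp5j*, a subunit of the peripheral stalk, had 0.46 with *Casp2*, where it was called, and 0.15 without. That a member was called in 1 genotype only does not show a difference between genotypes, which the interaction below tests.

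The tissue isoforms were at 13.2 CPM or less in every tumor, and the common form made up most reads of each pair. The share of *Cox4i2*, the lung and hypoxia form, among reads of *Cox4i1* and *Cox4i2* was 0.0417% to 0.534%, with a median of 0.125%. For the heart and muscle forms the ranges were 0.0541% to 1.94% for *Cox6a2* of *Cox6a1* and *Cox6a2*, 0.503% to 3.49% for *Cox7a1* of *Cox7a1* and *Cox7a2*, and 0% to 3.30% for *Cox8b* of *Cox8a* and *Cox8b*. *Cox6b2*, a testis form, held 0% to 3.56% of the reads of *Cox6b1* and *Cox6b2*, and *Cox7b2* 0% to 0.396% of those of *Cox7b* and *Cox7b2*. *Ndufa4l2*, which hypoxia induces, held 0.302% to 3.38% of the reads of *Ndufa4* and *Ndufa4l2*. A share rests on few reads, as for *Cox4i2* in EuMycC2ko245 with 2 of 4797 reads (95% Wilson interval 0.0114% to 0.152%) and in MYCN235, the highest tumor, with 34 of 6366 reads (0.382% to 0.745%). The common forms *Cox4i1*, *Cox6a1*, *Cox6b1*, *Cox7a2* and *Cox8a* had log2 fold changes between tumor types of 0.026, 0.12, 0.24, 0.05 and 0.012 with *Casp2* and -0.075, 0.21, 0.063, -0.30 and -0.25 without, none of them called. *Cox4i1*, *Cox7a2* and *Cox8a* changed sign with *Casp2* under RLE scaling.

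The isoforms varied from tumor to tumor. *Cox6a2* was at 1.66, 3.68, 5.11 and 6.05 CPM in *EμMyc*, 3.32, 1.08 and 0.202 CPM in *EμMyc/Casp2-/-*, 4.27, 0.798, 0.865 and 1.17 CPM in *Th-MYCN* and 5.04, 0.706, 0.385 and 0.406 CPM in *Th-MYCN/Casp2-/-* tumors. Among the neuroblastomas MYCN175 and MYCNC2ko118 were highest, and the summed level of 15 skeletal muscle markers in these was 353 and 714 CPM against 10.6 to 31.8 CPM in the other 6. *Acta1*, *Ckm* and *Myh4*, genes of contractile fibers, were at 86.1, 21.3 and 3.78 CPM in MYCN175 and at 71.6, 57.7 and 58.9 CPM in MYCNC2ko118. In the lymphomas the muscle sum was 29.3 to 75.5 CPM and *Cox6a2* reached its highest value, 6.05 CPM, in EuMyc835 at a muscle sum of 50.2 CPM. *Cox8b*, the form of muscle and brown fat, was at 2.97, 4.45, 0 and 0.318 CPM in *EμMyc*, 3.71, 0.0834 and 0 CPM in *EμMyc/Casp2-/-*, 4.27, 2.10, 0.519 and 5.80 CPM in *Th-MYCN* and 5.76, 0.321, 0 and 0.406 CPM in *Th-MYCN/Casp2-/-* tumors. Its highest neuroblastomas, MYCN391, MYCNC2ko118 and MYCN175, had *Ucp1*, the brown fat uncoupling protein, at 22.2, 8.85 and 10.1 CPM, while MYCNC2ko176, at 0, and MYCNC2ko144 had 0.193 CPM each. EuMyc743b, the highest lymphoma for *Cox8b*, had *Ucp1* at 21.9 CPM, while EuMycC2ko215 had *Cox8b* at 3.71 CPM with *Ucp1* at 0 CPM. *Ucp1* was also high in MYCN235, at 19.7 CPM, where *Cox8b* was at 2.10 CPM. The summed level of 8 brown and white fat markers was 72.6 to 417 CPM over all tumors and did not follow *Ucp1* throughout. It was 367, 143 and 234 CPM in MYCN391, MYCNC2ko118 and MYCN175, against 193 CPM in MYCN235 and 152 CPM in MYCN332. The highest sum was that of EuMyc614, which had *Ucp1* at 0.262 CPM. All muscle markers but *Myh2*, *Myh4* and *Pvalb* in *EμMyc/Casp2-/-* had a read in each group. The part of muscle and fat in these values was not tested.

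*Cox7a1* was at 2.19, 3.93, 1.50 and 3.82 CPM in *EμMyc*, 4.49, 1.42 and 4.64 CPM in *EμMyc/Casp2-/-*, 2.32, 2.10, 0.807 and 2.90 CPM in *Th-MYCN* and 2.88, 0.578, 1.16 and 1.30 CPM in *Th-MYCN/Casp2-/-* tumors, with no tumor type or genotype apart, and its log2 fold change was 0.49 (SE 0.57, FDR 0.481) with and 1.23 (SE 0.63, FDR 0.102) without *Casp2* (quasi-likelihood). The latter was called without EuMycC2ko239, at 1.67 (quasi-likelihood FDR 0.0405), or without MYCNC2ko118, at 1.79 (quasi-likelihood FDR 0.0317). *Ndufa4l2* was at 4.02, 2.48, 1.73 and 1.91 CPM in *EμMyc*, 3.90, 2.002 and 0.807 CPM in *EμMyc/Casp2-/-*, 7.81, 3.77, 2.36 and 4.63 CPM in *Th-MYCN* and 1.66, 2.05, 2.79 and 2.27 CPM in *Th-MYCN/Casp2-/-* tumors, and MYCN175 was the highest. *Cox6b2* ranged from 0 in EuMycC2ko245 to 13.2 CPM in MYCNC2ko180, and was called lower with *Casp2* when EuMyc743b was left out (quasi-likelihood FDR 0.0280) and in the *Casp2*-deficient tumors when EuMycC2ko215 was left out (FDR 0.0465). *Cox4i2*, which was not tested, was at 0.874, 0.598, 0.472 and 0.530 CPM in *EμMyc*, 0.781, 0.917 and 0.202 CPM in *EμMyc/Casp2-/-*, 0.671, 2.47, 1.33 and 0.741 CPM in *Th-MYCN* and 0.216, 0.835, 0.385 and 0.649 CPM in *Th-MYCN/Casp2-/-* tumors, above 1 CPM in MYCN235 and MYCN332 alone. The windows before *Cox7a1* and *Cox7a2* are shown as those of a muscle form and the common form of the same subunit, neither with any of the 4 motifs. That of *Cox6a1*, the common partner of *Cox6a2*, is shown with its NRF1 sites in capitals, the first of them a run that matches the motif on both strands. An ETS site of *Cox6a1*, 16 bases before the start, is not among the bases shown. The windows are from RefSeq (GRCm38.p6, in this order chr7:30183921-30184143, plus strand, chr9:79759879-79760103, minus strand, and chr5:115348982-115349129, minus strand).
Cox7a1: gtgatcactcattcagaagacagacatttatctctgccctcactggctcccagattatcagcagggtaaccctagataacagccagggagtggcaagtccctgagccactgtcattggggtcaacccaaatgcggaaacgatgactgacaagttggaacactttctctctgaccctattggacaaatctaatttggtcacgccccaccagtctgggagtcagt
Cox7a2: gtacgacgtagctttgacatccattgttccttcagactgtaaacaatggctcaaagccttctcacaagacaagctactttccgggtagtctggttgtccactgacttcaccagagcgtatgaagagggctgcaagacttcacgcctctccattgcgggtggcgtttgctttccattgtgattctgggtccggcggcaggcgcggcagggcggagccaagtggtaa
Cox6a1: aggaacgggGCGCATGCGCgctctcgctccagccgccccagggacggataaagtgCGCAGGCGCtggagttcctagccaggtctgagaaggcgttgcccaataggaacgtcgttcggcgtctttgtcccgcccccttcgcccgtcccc

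**Figure D5:**
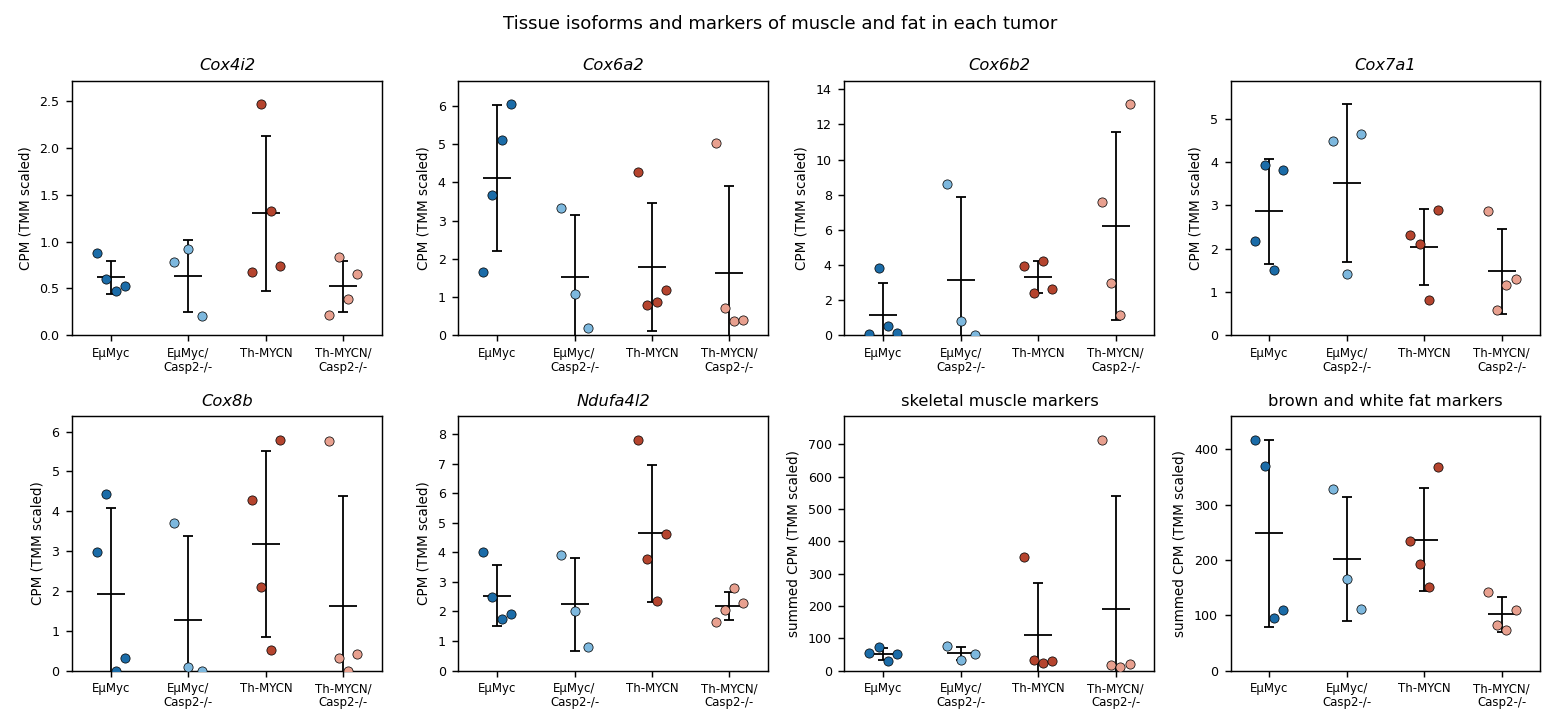
Level (CPM after TMM scaling) in each tumor of 6 tissue isoforms and summed level of skeletal muscle and of brown and white fat markers, by group, with the group mean and SD (n = 4, 3, 4 and 4, lower ends of the error bars cut at 0). *Cox6a2* and the muscle sum are both highest among neuroblastomas in MYCN175 and MYCNC2ko118, and no isoform is above 13.2 CPM.

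The loss of *Casp2* was tested within each tumor type on the same tumors, and no member passed. In the neuroblastomas 0 of 81 members were called by the quasi-likelihood test, by the likelihood ratio test of edgeR or by DESeq2, against 0.0336% of all genes by the first and 0.894% by the second. At an unadjusted p under 0.05 there were 2, 2 and 3 members by these tools, and the smallest FDR of the first was 0.656. The median standard error of a log2 fold change was 0.22, and the median log2 fold change 0.15, or 0.064 without MYCNC2ko176. The *Th-MYCN/Casp2-/-* tumors were all above the *Th-MYCN* tumors for 4 members (2.94% of all genes), *Ndufa2*, *Ndufv1*, *Uqcrh* and *Cox4i1*, and all below for 0 (3.68% of all genes). *Ndufa1*, an accessory subunit, had the smallest p, with 59.3, 53.8, 62.3 and 51.9 CPM in *Th-MYCN* and 67.7, 62.2, 84.1 and 89.7 CPM in *Th-MYCN/Casp2-/-* tumors and a log2 fold change of 0.42 (SE 0.18, quasi-likelihood FDR 0.656). It was followed by *Ndufa4l2* at -1.08 (SE 0.50, quasi-likelihood FDR 0.733) and its paralog *Ndufa4*, now assigned to complex IV, at 0.42 (SE 0.21, quasi-likelihood FDR 0.774).

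In the lymphomas 0 of 81 members were called by any of the 3 tools, against 0.141% of all genes by the quasi-likelihood and 1.5% by the likelihood ratio test, with 1, 3 and 4 members at an unadjusted p under 0.05 by the quasi-likelihood test, the likelihood ratio test and DESeq2. The groups were apart for 0 members above (1.75% of all genes) and 0 below (1.96% of all genes). The median standard error was 0.24. The median log2 fold change was 0.13 with 55 of 81 positive, and -0.075 with 22 positive without EuMycC2ko215. *Ndufa5*, an accessory subunit, had the smallest p, with 65.7, 91.2, 67.3 and 73.1 CPM in *EμMyc* and 181, 62.7 and 106 CPM in *EμMyc/Casp2-/-* tumors (log2 fold change 0.65, SE 0.30, quasi-likelihood FDR 0.576), and 0.20 without EuMycC2ko215. *Uqcrh*, the hinge protein of complex III, had 149, 170.1, 192 and 133 CPM in *EμMyc* and 437, 139.6 and 169 CPM in *EμMyc/Casp2-/-* tumors, and its log2 fold change of 0.62 (quasi-likelihood FDR 0.592) became -0.050 without EuMycC2ko215. *Atp5e*, the epsilon subunit of the ATP synthase, was at 552 CPM in EuMycC2ko215 and at 179 to 218 CPM in the other 6 lymphomas (log2 fold change 0.67, quasi-likelihood FDR 0.597), and 0.00040 without EuMycC2ko215.

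The interaction, the lymphoma effect of *Casp2* loss minus the neuroblastoma effect, was called for 0 of 81 members by the quasi-likelihood test (0.0538% of all genes), the likelihood ratio test and DESeq2, with 1 member at an unadjusted p under 0.05 by each. Its median was -0.0046, or -0.29 without EuMycC2ko215, with a median standard error of 0.32, so that only differences well above that size were within reach. The smallest p was that of *Ndufb6*, at -0.49 (SE 0.21, quasi-likelihood FDR 0.63), then *Ndufa1* at -0.53 and *Ndufa12* at -0.47. Of the members called between tumor types in only 1 genotype, none had a called interaction.

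Other genes of the pathway, in lists chosen by function, are given by their counts and their median log2 fold change with and without *Casp2*, beside the medians of -0.036 and -0.049 over all genes. Of all genes, 27.4% were higher and 32.9% lower with *Casp2*, and 26.8% and 31.4% without it, and the counts are to be read against these shares. Of the 11 complex I assembly factors tested, 5 were higher and 0 lower in lymphoma with *Casp2* and 3 and 0 without (medians 0.25 and 0.19). *Ecsit* at 0.87 and 1.05 and *Foxred1* at 0.78 and 0.89 on the log2 scale were called in both. The 13 of complex IV gave 4 higher and 0 lower in each (medians 0.42 and 0.27), with *Cox17*, the copper chaperone, at 1.60 and 1.67 and *Lrpprc*, which stabilizes mitochondrial messenger RNA, at 0.95 and 1.16. Of 3 assembly factors of complex III, *Ttc19* was lower in both at -0.83 and -1.40 (medians 0.15 and 0.29). Of the 3 of complex V, *Atpaf2* and *Tmem70* were higher in both (medians 0.48 and 0.49), and of 2 tested for complex II, 0 were called (medians 0.34 and 0.20).

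Of 9 electron carriers and subunits with other symbols, 4 were higher and 1 lower in each comparison (medians 0.54 and 0.35). The lower one was *Atpif1*, the inhibitor of the ATP synthase, at -1.74 and -2.07. Among 13 genes of the tricarboxylic acid cycle, which feeds the chain with NADH and succinate, 7 and 5 were higher and 0 lower (medians 0.44 and 0.38), and *Suclg2*, a succinyl-CoA ligase subunit, had 2.22 and 2.26. Among 15 regulators of mitochondrial biogenesis 10 and 9 were higher and 2 lower (medians 0.63 and 0.82). The coactivator *Ppargc1b* was higher at 2.97 and 2.99. Its relative *Ppargc1a* was lower, with means of 0.303 and 0.132 CPM in lymphomas with and without *Casp2*, near the level of 3 reads, against 3.14 and 3.93 CPM in neuroblastomas. *Gabpa*, a subunit of the ETS factor GABP, had 1.28 and 1.27, *Tfam*, the mitochondrial transcription factor, 0.99 and 1.01, and *Nrf1*, whose site was the most frequent of the 4 motifs, 0.36 and 0.46, each called in both.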

How the data were processed

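RNA from 15 tumors, 1 per mouse, was enriched for poly(A), and 50 bases of 1 end of each fragment were read on an Illumina HiSeq. The deposited files hold raw counts of uniquely mapped reads per gene and strand, which the authors made with STAR on mm10/GRCm38. FastQC and edgeR are also named in the submitters' processing notes, and versions are not given in the sources used here. The counts of the second strand (the fourth column) were used, and counts of either strand were an alternative. A further *EμMyc/Casp2-/-* tumor is not analysed here.

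Groups follow the titles of the samples. Genes over 1 CPM in at least 3 tumors (14880) were scaled by TMM and tested in 1 model of 4 group means with the quasi-likelihood test of edgeR 4.0.16 (R 4.3.3, limma 3.58.1), with Benjamini-Hochberg adjustment over all tested genes and an FDR threshold of 0.05. This was checked on simulated data with known changes. The alternatives were the likelihood ratio test of edgeR, DESeq2 1.42.0, RLE scaling, library size only, no low-count filter, reads of either strand, only the groups compared, and leaving out each tumor. Whether tumors share a litter or batch is not stated, and p-values measure the spread between tumors.

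The members and lists were chosen with earlier results of these data known. Isoform families and catalytic subunits were named whatever their values, with the 2 largest changes in each direction per complex among members called in both comparisons of tumor types, and the 3 smallest p of each comparison of genotypes. *Ndufa2*, *Ndufa6*, *Ndufa8*, *Ndufa9*, *Ndufb2*, *Ndufb8*, *Ndufs4*, *Ndufs6*, *Ndufs8*, *Uqcr11*, *Cox5a* and *Atp5j* were named after their values were seen, as were the genes picked out of the other lists. Gene positions, lengths and shared 50-base windows come from GENCODE vM21 (GRCm38), and promoters from RefSeq (GRCm38.p6), in which 69 of 85 members matched. Columns 2 and 3 of the tables served for the strand shares.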

Additional observations from a re-analysis of the deposited data

Results flagged for a closer look

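Among 116 groups of 4 tumors examined for the named genes, 5 held 1 tumor far from the other 3, by Dixon's criterion at the 95% level, and chance alone gives such a result in about 1 in 20 groups. *Cox7b* was at 153 CPM in the *Th-MYCN* tumor MYCN332 and at 107 to 110.1 CPM in the other 3. *Sdhc* was at 193 CPM in MYCN175 against 127 to 129.7 CPM. *Ndufa12* was at 34.3 CPM in MYCN391 against 26.3 to 27.5 CPM. In the *Th-MYCN/Casp2-/-* group, *Sdhd* was at 188 CPM in MYCNC2ko176 against 114 to 124 CPM, and *Ndufs1* was at 127 CPM in MYCNC2ko180 against 152 to 157 CPM. The group with 3 tumors could not be examined in this way.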

How the results depend on the processing

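With *Casp2*, the members lower in lymphoma were 4 in place of 2 under RLE scaling, reads of either strand, only the groups compared, and DESeq2, and leaving out each tumor gave 14 to 17 higher and 2 to 5 lower. Without *Casp2*, only the groups compared gave 5 higher and 0 lower in place of 12 and 1, and leaving out each tumor gave 5 to 23 higher and 0 to 5 lower. The comparisons of genotypes and the interaction kept 0 calls under each alternative. Of 24 named results that were called, 0 changed sign, 13 kept the call under every alternative and 11 lost it under at least 1. Of the named results that were not called, 18 changed sign and 8 became called under at least 1. With *Casp2*, RLE scaling and DESeq2 gave -0.026 for *Cox4i1*, -0.0047 for *Cox7a2* and -0.039 for *Cox8a*, and reads of either strand gave -0.057 for *Atp5g1*. Without it, library size only gave 0.061 and only the groups compared 0.056 for *Ndufa4l2*, and reads of either strand gave -0.23 for *Atp5g1* and -0.0036 for *Atp5g2*. Leaving out each tumor with *Casp2* gave -0.060 to 0.12 for *Cox4i1*, -0.023 to 0.12 for *Cox7a2*, -0.12 to 0.20 for *Cox8a*, -0.065 to 0.22 for *Ndufs1* and -0.050 to 0.29 for *Uqcrfs1*. Without *Casp2* it gave -0.23 to 0.094 for *Cox4i1*, -1.27 to 1.51 for *Cox6a2*, -0.19 to 0.29 for *Cox6b1*, -0.46 to 0.033 for *Cox8a*, -4.87 to 2.14 for *Cox8b*, -0.024 to 0.41 for *Ndufa4*, -0.57 to 0.41 for *Ndufa4l2*, -0.20 to 0.83 for *Atp5g1*, -2.04 to 0.80 for *Atp5g2*, -0.48 to 0.16 for *Ndufv1* and -0.15 to 0.32 for *Uqcrfs1*. *Uqcrh* in the comparison of lymphoma genotypes ranged from -0.050 to 0.92. The cause of these changes was not tested. The tissue isoforms and *Atp5g1*, *Atp5g2*, *Atp5l* and *Cox7c* rest on few reads. With 3 or 4 tumors in a group, the standard error was near 0.22 to 0.32 for the effect of *Casp2*. Only differences well above that size were within reach. No paired analysis was done, since each library came from a different mouse and no matching of mice between groups is stated.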
